A study of Mus musculus with 61 samples.

Results

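Protocadherins were examined in RNA sequencing libraries of sorted mouse retinal cells. The members are all genes of the deposited table whose symbol starts with Pcdh, 69 of 15149 genes. Of these, 57 are clustered protocadherins (13 Pcdha, 22 Pcdhb and 22 Pcdhg genes) and 12 are non-clustered genes that stand alone in the genome. Pcdha4 and Pcdhgb3 were not analysed here. The study compared 2 inbred strains. DBA/2J mice carry a mutant Gpnmb and develop an inherited glaucoma with age, and D2-Gpnmb+ mice share that background but carry a functional Gpnmb. The 61 libraries fall into 5 groups: DBA/2J at 4 months (n = 10), D2-Gpnmb+ at 4 months (n = 10), DBA/2J at 9 months (n = 25) and D2-Gpnmb+ at 9 months (n = 9), all on water, and DBA/2J at 9 months given nicotinamide at 500 mg/kg/day (n = 7). Cells were sorted as positive for Thy1.2, a surface marker of retinal ganglion cells, and negative for markers of blood-derived and endothelial cells and astrocytes. Per the labels, every retina came from an eye without axon degeneration, so the 9-month DBA/2J group stands for a stage before that damage. The sex of single libraries is not given in the labels, which also do not say that each library came from a separate animal, so every p-value measures only the spread between libraries.

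Protocadherins are cadherin-family adhesion molecules of the cell surface, and many are expressed in neurons. In the clustered genes each variable exon has its own promoter. Pcdha and Pcdhg variable exons are spliced to constant exons shared within their cluster, whereas each Pcdhb gene is a single exon of its own. A neuron switches on a small, partly random set of these promoters, the proteins bind like with like between cells, and in the retina the gamma cluster is known for dendrite self-avoidance of starburst amacrine cells and for the survival of interneurons and ganglion cells. The last variable exons of the alpha and gamma clusters, the C-type genes, are used more uniformly across neurons. Non-clustered protocadherins have single promoters, and many mark particular neuron types and axon tracts. Pcdh15 differs from the others as a tip-link component of hair cells that is also found in photoreceptors.

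Each library held between 5133114 and 19501444 recovered reads (median 9730486). The columns of the deposited table fall into 3 blocks that were recognised from the data, and the labels do not say what they stand for. Block 1 is made up of 10 libraries of age 9 months, 6 DBA/2J and 4 D2-Gpnmb+. Block 2 has 18 (16 and 2). The 33 libraries of block 3 include all 4-month and nicotinamide libraries but only 3 of the 9-month libraries of each strain on water. Comparisons of age and of nicotinamide are therefore largely comparisons between blocks, and each is given for all libraries and within block 3. Gpnmb, which checks the strain labels, lay at 3.69 to 14.5 in 4-month DBA/2J and 34.7 to 129.6 in 4-month D2-Gpnmb+ libraries. At 9 months it overlapped between DBA/2J (8.39 to 78.3) and D2-Gpnmb+ libraries, and the library labelled D2-Gpnmb+ 9 months replicate 1 had only 11.9. Xist was 7.93 in D2-Gpnmb+ 9 months replicate 8 and at least 4077 in all other libraries. Of 13 ganglion cell markers 12 were in the table, and their summed level was 294.5 to 473 in 4-month DBA/2J and 100.0 to 360 in 9-month DBA/2J libraries. Levels of other retinal cells were not low: the 13 measured amacrine and horizontal cell markers summed to between 734.6 and 2524 over the DBA/2J groups. In 4-month DBA/2J the median sum was 1994 for this list, 6600.5 for bipolar cells, 6009 for rods, and 2286 for Müller glia and astrocytes. Rod sums differed by block in 9-month DBA/2J, with medians of 7490, 21255 and 5961 in blocks 1, 2 and 3. In these bulk libraries, fewer cells of a type and less RNA per cell cannot be told apart.

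The promoters of 4 non-clustered members are shown because these genes were among those that differed most between the DBA/2J groups. Pcdh7 differed as much but is given by its counts only, since part of its window is transcribed. Of the 69 members, 9 had a promoter in the RefSeq table of GRCm38.p6. Each line gives the 250 bases before the annotated start, 5′ to 3′ on the strand of the gene, and capitals mark matches to 3 motifs searched on both strands. The TATA box was searched with the letters TATAAA. For the CAAT box the letters were CCAAT, which reads ATTGG on the other strand. For the GC box they were GGGCGG, and the reverse reading is CCGCCC.
Pcdh10 (chr3:45378148-45378397, plus strand): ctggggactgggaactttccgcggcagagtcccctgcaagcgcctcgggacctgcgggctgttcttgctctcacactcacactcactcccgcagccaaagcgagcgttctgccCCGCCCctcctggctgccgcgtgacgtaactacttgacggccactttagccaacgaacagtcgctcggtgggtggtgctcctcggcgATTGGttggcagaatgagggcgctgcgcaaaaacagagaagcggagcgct
Pcdh17 (chr14:84443313-84443562, plus strand): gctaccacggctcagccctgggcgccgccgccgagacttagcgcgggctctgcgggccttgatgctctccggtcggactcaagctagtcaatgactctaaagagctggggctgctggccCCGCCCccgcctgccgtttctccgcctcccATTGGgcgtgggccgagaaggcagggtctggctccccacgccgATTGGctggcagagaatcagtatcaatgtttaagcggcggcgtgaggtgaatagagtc
Pcdh19 (chrX:133688994-133689243, minus strand): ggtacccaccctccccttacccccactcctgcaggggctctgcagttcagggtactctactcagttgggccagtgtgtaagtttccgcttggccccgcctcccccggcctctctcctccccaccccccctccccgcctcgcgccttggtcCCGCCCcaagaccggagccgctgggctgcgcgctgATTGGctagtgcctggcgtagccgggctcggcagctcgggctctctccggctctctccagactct
Pcdh8 (chr14:79771313-79771562, minus strand): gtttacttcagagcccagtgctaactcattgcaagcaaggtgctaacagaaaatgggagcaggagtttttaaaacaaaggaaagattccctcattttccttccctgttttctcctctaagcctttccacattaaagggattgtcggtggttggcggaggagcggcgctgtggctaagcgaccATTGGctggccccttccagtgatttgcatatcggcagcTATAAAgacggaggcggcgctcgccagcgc
The stretches of Pcdh10, Pcdh17 and Pcdh19 hold 22, 21 and 16 CpG dinucleotides, and that of Pcdh8 holds 11, against a median of 6 over all 32851 RefSeq promoters cut to the same length. The window of Pcdh7 holds 7 and none of the 3 motifs, so the 4 printed windows do not stand for every gene that differed. Over the 9 matched members, counts ran from 3 (Pcdh20) to 23 (Pcdh18). A GC box stood in the windows of Pcdh10, Pcdh17, Pcdh18 and Pcdh19 and in 32.7% of all promoters. A CAAT box stood in the windows of all matched members except Pcdh7 and in 33.8% of all promoters. Pcdh8 and Pcdh15 held a TATA box, which 12.4% of all promoters hold. A match of letters is a description and shows no binding.

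Levels are given as normalised reads, the deposited values (reads divided by a size of the library). The sum of these values differed between libraries, from 717752 to 1560900, and in block 1 it was at most 820641. Non-clustered and beta genes were compared with each other after division by exon length in kilobases. Some of these lengths include bases that exons of another gene also cover, which can lower the level per kilobase. Only 1107 of 3034 bases of Pcdhb12 and 8369 of 10604 bases of Pcdh7 were free of other genes' exons. Among the non-clustered genes, averaged over the 5 group means, Pcdh9 (chr14:93013410-93890679, minus strand) was highest per kilobase at 17.05, followed by Pcdh15 (chr10:73099342-74649737, plus strand) at 11.3. Pcdh7 (chr5:57717967-58133230, plus strand) stood at 5.04 per kilobase and Pcdh1 (chr18:38185914-38212053, minus strand) at 4.82. Pcdh19 (chrX:133582860-133688987, minus strand), the gene of a human X-linked epilepsy, stood at 2.62. Pcdh18, Pcdh17 (chr14:84443563-84539002, plus strand) and Pcdh10 (chr3:45378398-45435623, plus strand) lay at 1.39, 1.19 and 0.766 per kilobase. Pcdh8, Pcdh11x, Pcdh20 and the endothelial gene Pcdh12 lay lower still, at 0.516, 0.329, 0.135 and 0.135. Of the 11 neighbouring pairs in this order, 7 had overlapping library ranges per kilobase in all 5 groups, among them Pcdh9 and Pcdh15, and the other 4 overlapped in 4 groups. Those 4 were Pcdh15 and Pcdh7, Pcdh1 and Pcdh19, Pcdh19 and Pcdh18, and Pcdh11x and Pcdh20.

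The clustered genes lie on chromosome 18, from 36930184 (start of Pcdha1) to 37187661 for alpha, from 37264938 to 37524479 for beta, and from 37661793 to 37841873 for gamma, all on the plus strand in mm10. Among Pcdhb genes, Pcdhb16 was highest per kilobase at 22.01, followed by Pcdhb18 at 13.95, Pcdhb17 at 13.7 and Pcdhb20 at 9.71, and Pcdhb1 was lowest at 1.09. Of the 21 neighbouring pairs, 18 had overlapping ranges in all 5 groups. Pcdhb genes are close paralogs, so reads from similar stretches could be split between them. Pcdha and Pcdhg genes share constant exons, so levels per length were not computed for them and their levels are not ranked. In normalised reads, gamma genes had means between 9.17 (Pcdhgc5) and 58.2 (Pcdhgc3), and alpha genes between 1.86 (Pcdha1) and 13.6 (the C-type gene Pcdhac2). Pcdhgb8 is annotated as a polymorphic pseudogene.

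The first comparison asked what differed with age in DBA/2J, between 25 libraries at 9 months and 10 at 4 months. In all libraries, 7 of the 10 non-clustered genes tested were lower at 9 months, the neuronal adhesion genes Pcdh10, Pcdh17, Pcdh7, Pcdh19 and Pcdh8 by the most, whereas 8 of 22 gamma genes were higher. Of 67 members tested, 17 passed an adjusted p of 0.05 (limma, Benjamini-Hochberg over all genes), 8 higher and 9 lower (9 and 8 by edgeR, 12 and 8 by DESeq2, 5 and 9 with libraries scaled to the same total). The limma test called 22.4% of all genes, 9.25% higher and 13.2% lower. Of all 13587 genes, edgeR called 1712 higher and 1448 lower, and DESeq2 called 2192 and 1517. With the same total 850 of 13649 genes were higher and 1508 lower. Within block 3, with 3 libraries at 9 months, 1 of 68 members passed (Pcdhb18, higher), where 0.263% of all genes did.

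Pcdh7, a protocadherin known to bind the phosphatase PP1, lay between 13.6 and 103.4 normalised reads in 4-month DBA/2J libraries, with a median of 52.2. At 9 months it ran from 2.99 to 71.3 with a median of 17.85. The ranges overlapped, but the 9-month median lay close to the lowest 4-month library. On the scale of log2(value + 1), which understates changes of low genes, Pcdh7 fell by 1.68 (SE 0.40, adjusted p 0.00328 by limma). The 9-month libraries differed by block: the 16 of block 2 had a median of 8.69, and the 3 of block 3 had 30.9, 40.1 and 65.3, inside the 4-month range. Within block 3 the log2 difference was -0.13 (adjusted p 0.958).

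Pcdh10, a delta-type protocadherin of axon pathways, lay at 4.15 to 31.6 normalised reads at 4 months (median 13.2) and at 0.149 to 19.96 at 9 months (median 3.04). The 9-month median was below every 4-month library. Pcdh10 fell by 1.75 on the log2 scale (SE 0.35, adjusted p 0.00065). Its 3 block 3 libraries at 9 months lay at 2.33 and 3.04, below the 4-month range, and at 9.07, inside it. The log2 difference within block 3 was -1.46 (adjusted p 0.279 by limma). Of the genes that fell in all libraries, Pcdh10 had the largest fall within block 3.

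Pcdh17, a synaptic protocadherin known from corticobasal circuits, had values of 3.15 to 39.7 at 4 months (median 16.5) and 0.279 to 22.5 at 9 months (median 2.45). It fell by 1.75 (SE 0.41, adjusted p 0.00251), and by block 3 alone, where the 9-month values were 5.16, 7.37 and 16.9, the difference was -0.60 (adjusted p 0.787). Pcdh19 lay at 13.85 to 70.7 (median 34.8) against 1.44 to 38.3 (median 10.75) and fell by 1.61 (SE 0.38, adjusted p 0.00295). Within block 3 its 9-month values were 12.99, 21.4 and 38.3, a log2 difference of -0.49. For both genes the 2 groups overlapped in all libraries and in block 3.

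Pcdh8, an activity-regulated synaptic protocadherin, was low, at 1.15 to 6.39 normalised reads at 4 months (median 2.80) and 0 to 3.81 at 9 months (median 0.483, with 5 of 25 libraries at 0). It fell by 1.29 (SE 0.25, adjusted p 0.000558), and within block 3 the difference was -0.62 without passing the test. Pcdh9 lay at 54.1 to 215.8 (median 126.5) against 19.3 to 162.9 (median 76.0) and fell by 0.94 (SE 0.26, adjusted p 0.0085). Its block 3 values of 81.0, 96.4 and 162.9 at 9 months lay inside the 4-month range, a log2 difference of -0.16. The X-linked Pcdh11x fell by 1.06 (adjusted p 0.011) in all libraries, with a difference of 0.08 within block 3.

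The other non-clustered genes did not pass in this comparison. Pcdh15 ran from 168.8 to 363.5 at 4 months (median 239.1) and from 46.7 to 564.5 at 9 months (median 208.6). Its log2 difference was -0.41 in all libraries and 0.51 within block 3. Pcdh1, which is expressed in epithelia and vessels as well as neurons, lay at 30.7 to 56.1 (median 36.9) against 6.52 to 66.5 (median 25.8), a difference of -0.52 (adjusted p 0.166). Pcdh18 differed by -0.24. Pcdh20 and Pcdh12, with medians of 1.18 and 0.537 normalised reads at 4 months, did not pass the filter on low values. Without that filter Pcdh20 fell by 0.66 (adjusted p 0.00519), while Pcdh12 differed by -0.07. The median over the 10 tested non-clustered genes was -1.18, and all 10 differences were below 0 (Pcdh18 was above 0 by edgeR and DESeq2), against a median of 0.02 over all genes tested. Within block 3 that median was -0.45 over 11 genes, of which 9 were below 0.

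**Figure D1:**
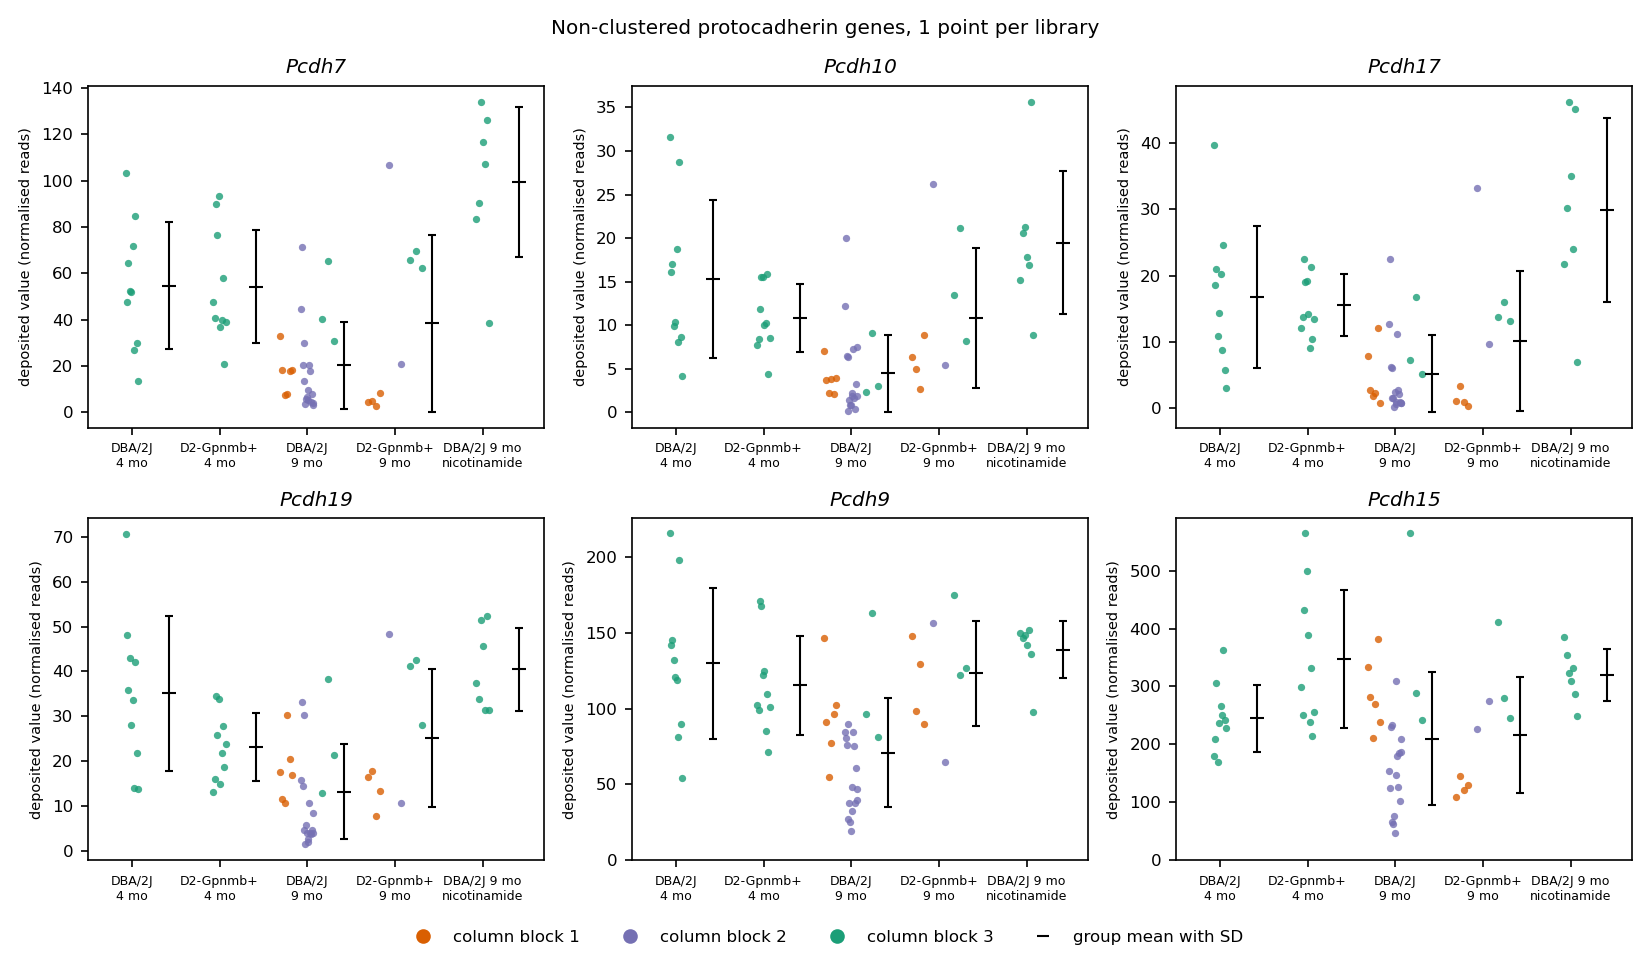
Normalised reads of Pcdh7, Pcdh10, Pcdh17, Pcdh19, Pcdh9 and Pcdh15 in every library (points, coloured by column block) for the 5 groups, with the group mean and SD. In the first 4 genes the 9-month DBA/2J points of block 2 crowd near the bottom, and the 7 nicotinamide points lie high, with a Pcdh7 median of 107.1.

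Gamma genes moved the other way with age. Pcdhga4 lay at 9.07 to 17.25 normalised reads in 4-month DBA/2J libraries (median 13.99) and at 13.7 to 39.4 at 9 months (median 22.3). Most 9-month libraries were thus above the highest 4-month library, and Pcdhga4 rose by 0.68 on the log2 scale (SE 0.14, adjusted p 0.00072). Pcdhgb6 ran from 5.65 to 12.6 (median 10.2) against 8.60 to 23.8 (median 16.7) and rose by 0.68 (SE 0.14, adjusted p 0.00065). Pcdhga8 (median 14.15 against 22.7) rose by 0.56 (adjusted p 0.00816) and Pcdhgb2 (16.95 against 25.4) by 0.52 (adjusted p 0.00885). Pcdhga7, Pcdhga11, Pcdhga6 and Pcdhga12 rose by 0.60, 0.57, 0.56 and 0.47, the last with an adjusted p of 0.0336 that passed in 6 of 10 fits without 1 of the 4-month libraries. Within block 3 none of the 8 passed, but each kept its sign, for example 0.37 for Pcdhga4, 0.48 for Pcdhgb6 and 0.68 for Pcdhga8.

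No gamma gene was called lower. The 3 C-type genes did not pass: Pcdhgc3 differed by -0.12, Pcdhgc4 by -0.20 and Pcdhgc5 by 0.10. The median over 22 gamma genes was 0.37 in all libraries and 0.36 within block 3, where 20 of 22 were above 0, against medians of 0.02 and -0.01 over all genes. None of the 13 alpha genes passed, and their median was -0.03 in all libraries and -0.05 within block 3.

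Beta genes changed direction with the set of libraries. In all libraries the median over 22 genes was -0.30, and 2 genes were called lower. Pcdhb9 (median 11.7 at 4 months against 5.80 at 9 months) fell by 0.83 (SE 0.21, adjusted p 0.00537), and Pcdhb3 (29.65 against 20.1) fell by 0.86 (adjusted p 0.015). Within block 3 their differences were -0.21 and 0.01. Within block 3 the median was 0.41 and 21 of 22 genes were above 0. Pcdhb18 lay at 45.1 to 84.7 in 4-month DBA/2J libraries (median 64.3), and the 3 block 3 libraries at 9 months, at 101.7, 118.5 and 147.0, were all above them. Pcdhb18 rose by 0.91 within block 3 (SE 0.16, adjusted p 0.0177), whereas the difference in all libraries, with a 9-month range of 30.4 to 147.0, was -0.06. Pcdhb16 showed the same spread, at 107.4 to 190.2 at 4 months against 55.2 to 253.2 at 9 months, with 135.2, 186.2 and 253.2 in block 3. The summed level of all beta genes was 505 to 781 at 4 months, 331 to 471 in the 6 block 1 libraries of 9-month DBA/2J, 331 to 979 in its 16 block 2 libraries, and 736 to 1130.5 in its 3 block 3 libraries.

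**Figure D2:**
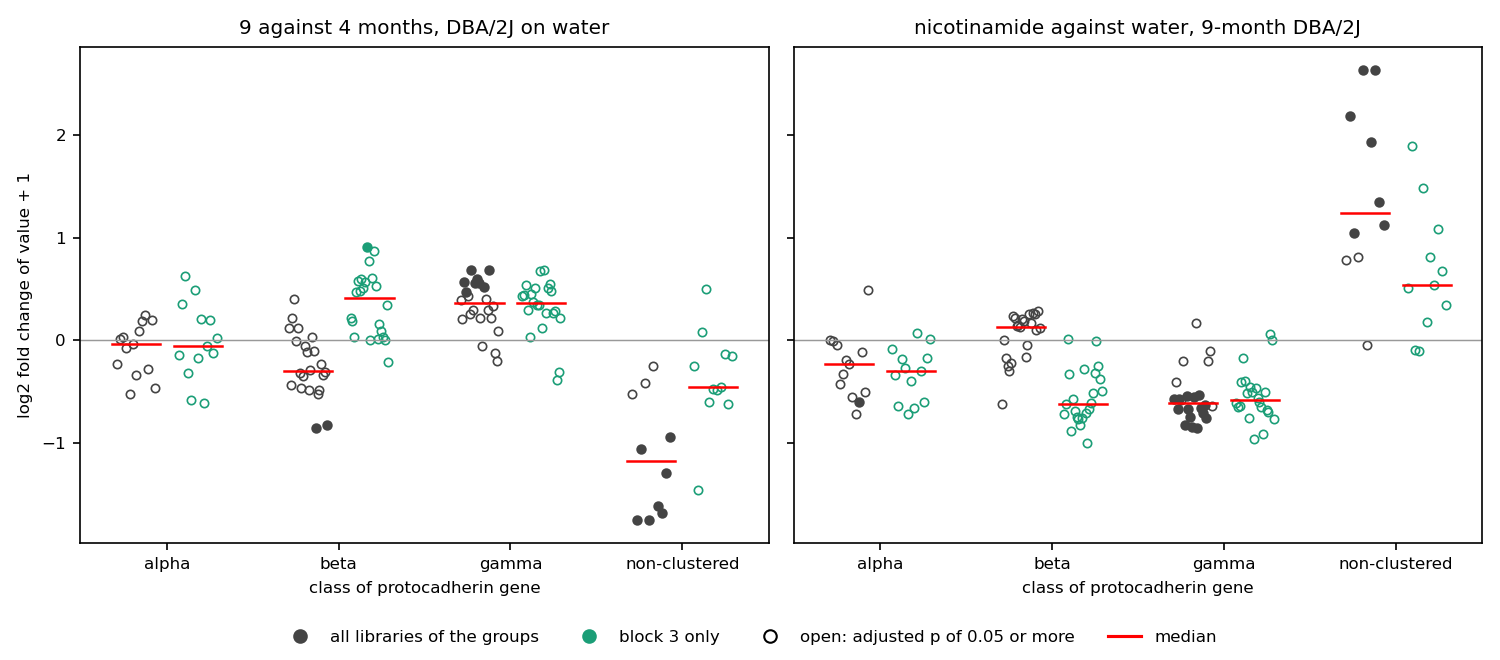
Log2 differences of every tested member by class (alpha, beta, gamma, non-clustered) for age in DBA/2J and for nicotinamide against water at 9 months, in all libraries and within block 3. Filled points passed an adjusted p of 0.05 and red lines are class medians. Non-clustered medians of -1.18 and 1.24 in all libraries (10 genes) shrink to -0.45 and 0.54 within block 3 (11 genes), and beta medians change sign.

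The second comparison asked what differed between 7 DBA/2J libraries at 9 months with nicotinamide, a precursor of NAD, and the 25 on water. It shares the 9-month water group with the comparison of age, so the 2 are not independent of each other. In all libraries 7 non-clustered genes were higher with nicotinamide, and 15 of 22 gamma genes and 1 alpha gene were lower. Of 67 members tested, 23 passed by limma (7 higher, 16 lower), where 15.1% of all genes did, 9.78% higher and 5.34% lower. On recovered reads edgeR called 6 members higher and 19 lower (1031 and 1244 of 13925 genes). DESeq2 called 6 higher and 20 lower (1186 and 1752 of 13925 genes). With libraries scaled to the same total 7 of 68 members were higher and 6 lower, against 1271 and 347 of 14020 genes. Within block 3, with 3 water libraries, limma called 0 of 68 members, and 0.00749% of all genes passed. An unadjusted p under 0.05 was found there for 38 members and for 2242 of all 13352 genes.

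Pcdh7 lay at 38.6 to 134.2 normalised reads with nicotinamide (median 107.1), and most of the water libraries, at 2.99 to 71.3, were below that range. It rose by 2.64 on the log2 scale (SE 0.46, adjusted p 0.000308). Against the 3 water libraries of block 3 the difference was 1.09 (adjusted p 0.174). Pcdh17 lay at 7.04 to 46.3 (median 30.2) against 0.279 to 22.5 and rose by 2.64 (SE 0.46, adjusted p 0.000356), with 1.49 within block 3 (adjusted p 0.201). Pcdh10 lay at 8.88 to 35.7 (median 17.8) against 0.149 to 19.96 and rose by 2.19 (SE 0.39, adjusted p 0.000361). Within block 3 all but 1 of its 7 nicotinamide libraries were above the 3 water libraries, the difference was 1.90, and the adjusted p was 0.0803.

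Pcdh19 had values of 31.3 to 52.3 with nicotinamide (median 37.5) and rose by 1.94 (adjusted p 0.00236), with 0.82 within block 3. Pcdh8, at 2.06 to 5.52 with a median of 3.19, rose by 1.35 (adjusted p 0.00105), with 0.68 within block 3. Pcdh9, at 97.6 to 152.1 with a median of 146.3, rose by 1.13 (adjusted p 0.00623), with 0.34 within block 3. Pcdh11x rose by 1.05 in all libraries (adjusted p 0.0336), was -0.09 within block 3, and passed in only 1 of 7 fits without 1 nicotinamide library. Pcdh1 (32.5 to 55.8, median 48.9) and Pcdh15 (248.5 to 386, median 322.8) differed by 0.78 and 0.82 without passing (adjusted p 0.0938 and 0.0734), and Pcdh18 differed by -0.05. Without the filter on low values Pcdh20 rose by 0.75 (adjusted p 0.00394), with 0.54 within block 3. The median was 1.24 over the 10 non-clustered genes tested in all libraries and 0.54 over the 11 tested within block 3, against -0.03 and 0.01 over all genes.

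Among gamma genes, Pcdhgb2 lay at 11.5 to 22.4 normalised reads with nicotinamide (median 12.6) against 15.2 to 44.7 on water (median 25.4) and fell by 0.86 on the log2 scale (SE 0.17, adjusted p 0.000799). Pcdhga4 lay at 9.40 to 14.97 (median 13.2) against 13.7 to 39.4 and fell by 0.83 (SE 0.16, adjusted p 0.000699). Pcdhga8 (median 10.75 against 22.7) fell by 0.84 (adjusted p 0.00219). Pcdhgb8 (15.3 against 22.5) fell by 0.76 (adjusted p 0.00648) and Pcdhgb6 (10.1 against 16.7) by 0.71 (adjusted p 0.00292). For Pcdhgb2 and Pcdhga4 the nicotinamide median lay below the lowest of the 25 water libraries. The other 10 genes called lower were Pcdhga1, Pcdhga5, Pcdhga6, Pcdhga7, Pcdhga9, Pcdhga11, Pcdhga12, Pcdhgb4, Pcdhgb5 and Pcdhgb7, at -0.53 (Pcdhgb4) to -0.75 (Pcdhga7).

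The C-type genes again differed little or did not pass, with -0.20 for Pcdhgc3, -0.11 for Pcdhgc4 and -0.64 for Pcdhgc5 (adjusted p 0.0616). The other gamma genes that did not pass were Pcdhga2, Pcdhga3, Pcdhga10 and Pcdhgb1, the last with a difference of 0.17. The gamma median was -0.61 in all libraries and -0.58 within block 3, where Pcdhga8 differed by -0.96, Pcdhgb8 by -0.70, Pcdhgb2 by -0.60 and Pcdhga4 by -0.52. The summed gamma level was 340 to 456 with nicotinamide, 397 to 802 in 9-month and 402 to 580 in 4-month DBA/2J libraries on water. Pcdha8 fell by 0.60 (adjusted p 0.049) and passed in 1 of 7 fits without 1 nicotinamide library. The alpha median was -0.23 in all libraries and -0.30 within block 3.

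**Figure D3:**
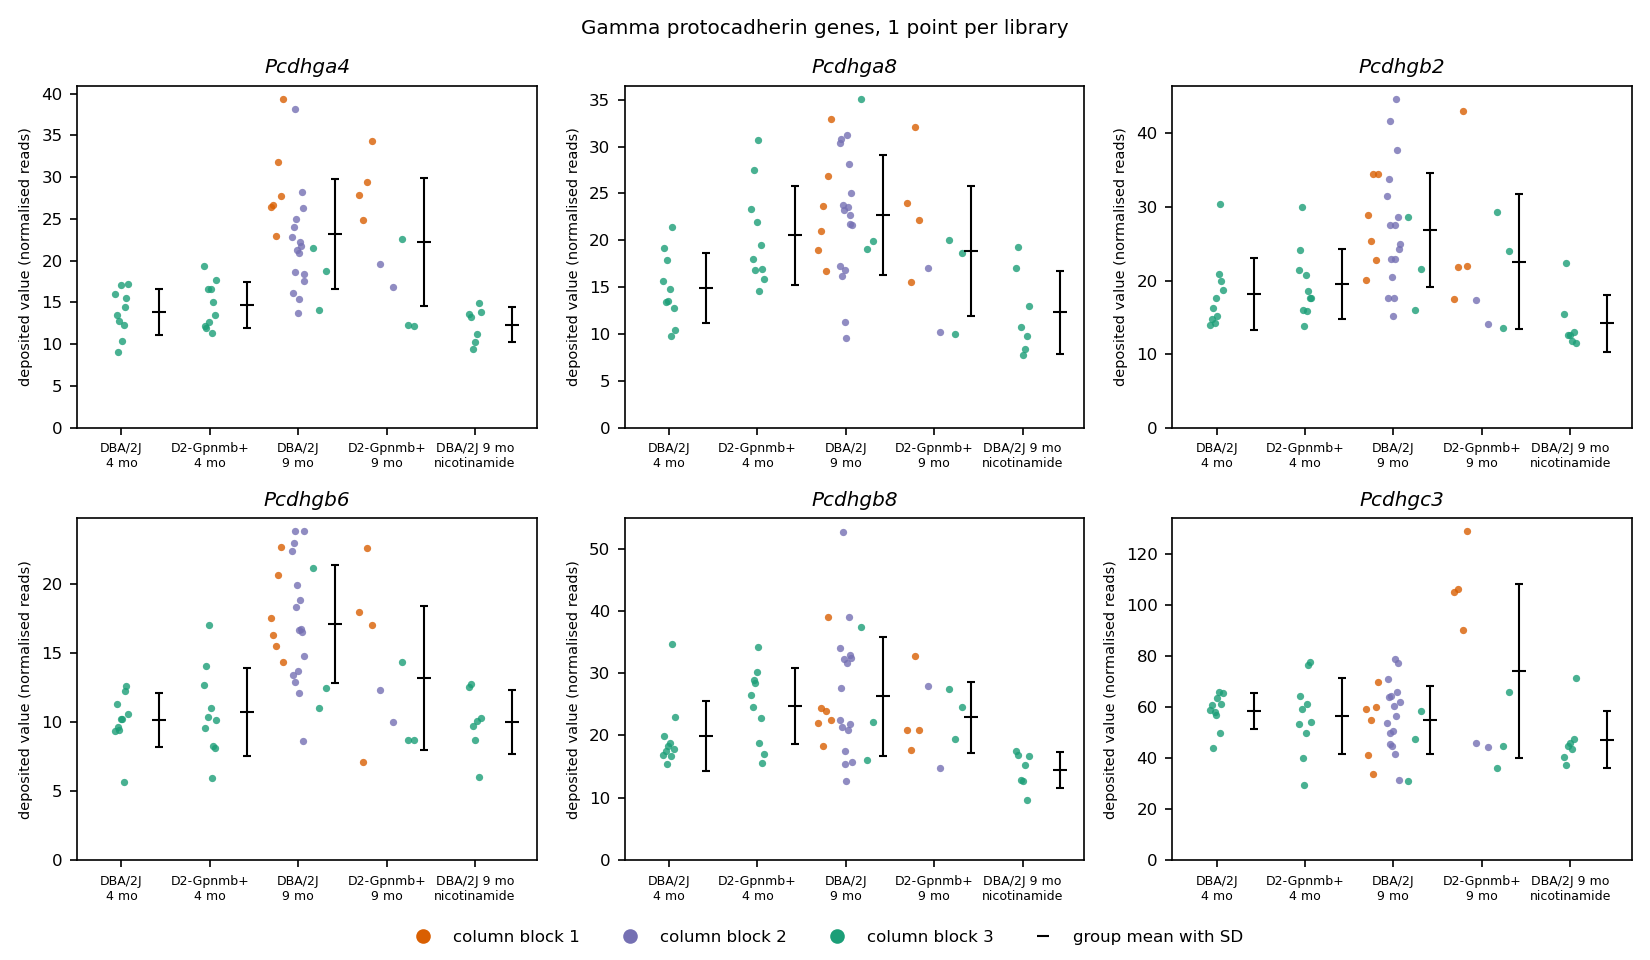
Normalised reads of Pcdhga4, Pcdhga8, Pcdhgb2, Pcdhgb6, Pcdhgb8 and Pcdhgc3 in every library (points, coloured by block) for the 5 groups, with mean and SD. In the first 5 genes the 9-month DBA/2J water libraries spread upward and the nicotinamide libraries lie low, with a Pcdhga8 median of 10.75 against 22.7. The highest Pcdhgc3 values, 90.3 to 128.9, are the 4 block 1 libraries of 9-month D2-Gpnmb+.

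No beta gene passed in the comparison with nicotinamide, and the median changed sign with the libraries, from 0.14 in all libraries to -0.62 within block 3, where 21 of 22 differences were below 0. Pcdhb16 lay at 77.2 to 158.3 with nicotinamide (median 109.5), Pcdhb18 at 46.8 to 106.8 (median 67.1) and Pcdhb17 at 42.3 to 94.8 (median 59.0). The corresponding 4-month DBA/2J medians were 128.9, 64.3 and 69.4.

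Within the beta cluster, differences in block 3 followed the order of the genes along the chromosome. For age in DBA/2J the 11 genes nearest the alpha cluster had a median of 0.03 and the 11 nearest the gamma cluster a median of 0.58 (Spearman's rho of order against difference 0.81, n = 22 genes). For nicotinamide the medians were -0.38 and -0.75 (rho -0.61). Both use the same 3 water libraries, and the genes share libraries and similar sequence, so these are descriptions without a test. In all libraries the rho values were 0.40 and -0.21. Level per kilobase also rose along the cluster, with medians of 3.70 and 7.14 (rho 0.45), and its own rho with the block 3 differences was 0.47 for age and -0.42 for nicotinamide.

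**Figure D4:**
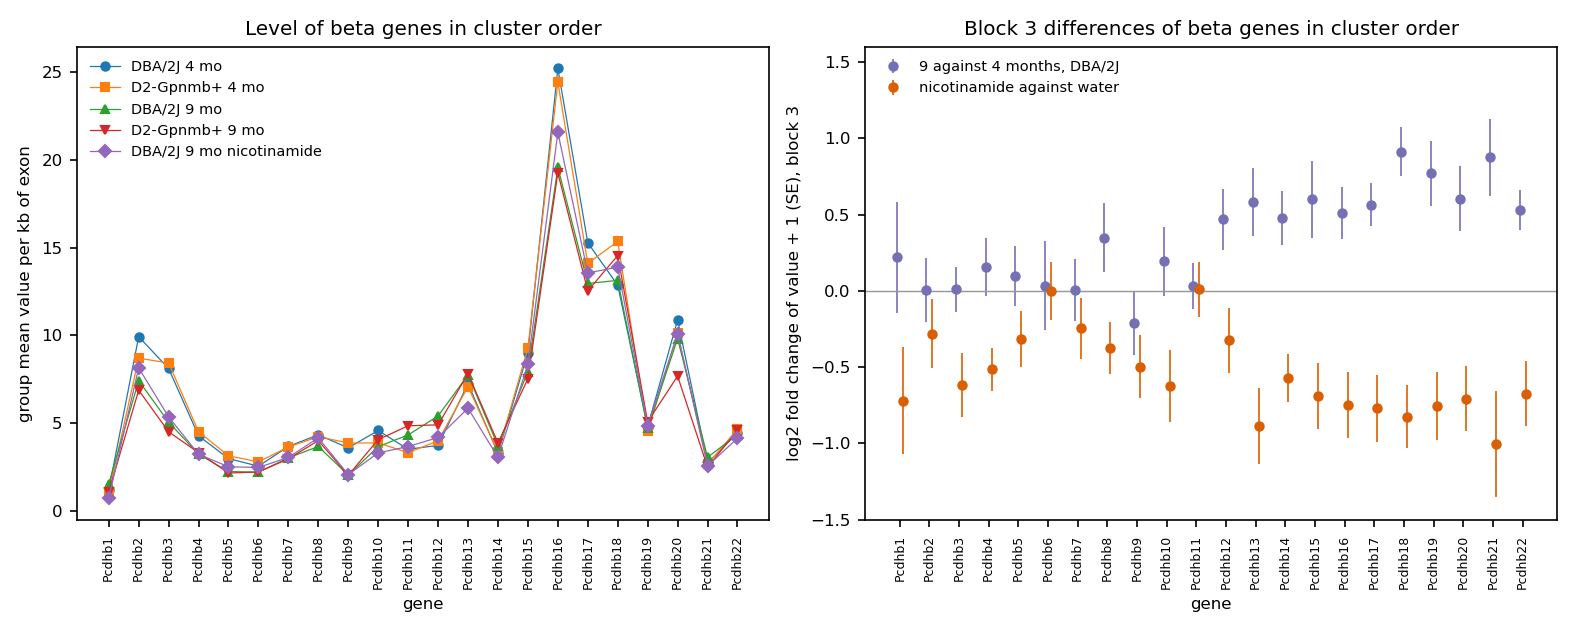
Pcdhb genes in chromosomal order from Pcdhb1 to Pcdhb22. The left panel plots group means in normalised reads per kilobase, highest at Pcdhb16. The right panel plots log2 differences within block 3 with SE for age in DBA/2J and for nicotinamide, which lie farther from 0 toward the gamma end, with medians of 0.58 and -0.75 in the last 11 genes.

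The remaining comparisons gave no call among the members by limma. Between strains at 4 months 0 of 67 passed, and 0.250% of all genes passed. By limma 9 members had an unadjusted p under 0.05, and so did 1726 of all 12804 genes. In the same comparison edgeR and DESeq2 on recovered reads also called 0. The smallest adjusted p was that of Pcdhga8, with a log2 difference of -0.44 in DBA/2J against D2-Gpnmb+ (adjusted p 0.177). Its medians were 14.15 and 18.7, with overlapping ranges. Pcdh15 had medians of 239.1 and 315.6 (difference -0.46, adjusted p 0.233). Pcdh7, Pcdh10, Pcdh17 and Pcdh19 had D2-Gpnmb+ medians at 4 months of 44.1, 10.1, 13.96 and 22.8, close to or below those of DBA/2J.

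At 9 months on water, 0 of 67 members passed between strains (0 by edgeR and by DESeq2), where 0.0218% of all genes did, and 0% within block 3. An unadjusted limma p under 0.05 was found for 7 members and for 1812 of all 13755 genes. All 10 non-clustered differences were below 0, that is lower in DBA/2J, with a median of -0.78, and they were also below 0 by edgeR, by DESeq2 and with the same total per library. Within block 3 the median was -0.54 and 2 of 10, Pcdh11x (0.27) and Pcdh15 (0.16), were above 0. With block as a covariate 1 of 10 was above 0 and the median was -0.50. In all libraries the differences included -1.22 for Pcdh10, -1.19 for Pcdh11x (adjusted p 0.126), -0.92 for Pcdh9 and -0.94 for Pcdh1. Pcdh10 lay at 2.66 to 26.2 in 9-month D2-Gpnmb+ libraries (median 8.18), with 8.18, 13.5 and 21.2 in block 3 against 2.33, 3.04 and 9.07 in DBA/2J (log2 difference -1.48). The D2-Gpnmb+ libraries also differed by block, but with block 1 lowest. Pcdh7 ran from 2.86 to 8.29 in the 4 block 1 libraries, was 20.7 and 106.9 in block 2, and 62.1, 65.9 and 69.6 in block 3. Pcdh17 ran from 0.395 to 3.42 in block 1, was 9.645 and 33.3 in block 2, and 13.2, 13.8 and 16.005 in block 3. In DBA/2J the lowest block median of both genes was that of block 2, at 8.69 and 1.88. The D2-Gpnmb+ library with low Xist held the group's highest values of Pcdh7 (106.9), Pcdh17 (33.3), Pcdh10 (26.2) and Pcdh19 (48.4). Without that library, or without the library of low Gpnmb, the counts of this comparison, of age in D2-Gpnmb+ and of the interaction stayed at 0.

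With age in D2-Gpnmb+, limma called 0 of 67 members, where it called 0.0232% of all genes, and 0% within block 3. An unadjusted p under 0.05 was found for 17 members and for 3917 of all 12910 genes. On recovered reads edgeR called 4 members and 1495 of all genes, and DESeq2 called 5 members and 2114 of all genes. Pcdhb3 (-1.07), Pcdhac2 (-0.91) and Pcdhb9 (-0.90) came nearest, each with an adjusted p of 0.0741. Pcdhb9 had medians of 10.95 at 4 months and 5.51 at 9 months and differed by -0.89 within block 3, where Pcdhac2 differed by -0.28 and Pcdhb3 by -0.18. Whether the age difference itself differed between strains was tested with an interaction term over the 4 water groups. It called 0 of 69 members (0 by edgeR and by DESeq2), where 0.375% of all genes passed, and 0.0774% within block 3. An unadjusted limma p under 0.05 was found for 8 members and for 1820 of all 14150 genes. The nearest were Pcdh11x (-1.67, adjusted p 0.066; -0.22 within block 3) and Pcdh10 (-1.56, adjusted p 0.14; -1.82 within block 3). Thus no member's age difference was shown to differ between strains.

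Nicotinamide-treated DBA/2J libraries were also compared with 9-month D2-Gpnmb+ libraries, and limma called 0 of 67 members. The share of all genes was 0%, and 0.299% within block 3. An unadjusted limma p under 0.05 was found for 24 members and for 3838 of all 13054 genes. The other tests called 4 members and 1067 of all genes (edgeR), and 7 members and 2083 of all genes (DESeq2). Pcdh7 differed by 2.16, Pcdh17 by 2.00 and Pcdhga4 by -0.74 (adjusted p 0.0805). Within block 3 these differences were 0.50, 0.84 and -0.28, and the non-clustered median went from 0.78 (10 genes) to 0.11 (11 genes).

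Members varied together across libraries. Over the 33 libraries of block 3, which include all 5 groups and differ in depth and cell make-up, Pearson's r of log2 levels was 0.90 between Pcdh7 and Pcdh17, 0.85 between Pcdh10 and Pcdh17, and 0.80 between Pcdh10 and Pcdh7. The median r over pairs was 0.52 within gamma, 0.34 within beta, 0.33 between beta and gamma, and -0.19 between gamma and non-clustered genes. Within the non-clustered genes it was 0.26, with 43 of 66 pairs above 0, so the close pairs above do not stand for the class. Gamma genes share constant exons, and the part of these exons in the likeness within gamma was not tested.

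Several non-clustered genes that moved between the DBA/2J groups moved with markers of inhibitory interneurons, though not with these markers alone. The list of amacrine and horizontal cell markers summed to 1462 to 2524 in 4-month DBA/2J, 734.6 to 2288 in 9-month DBA/2J on water and 1511 to 2211 with nicotinamide. With age 7 of its 11 tested genes were lower and with nicotinamide 9 of 11 were higher, and within block 3 none passed in either (medians -0.83 and 1.25). Gad1, the GABA-synthesising enzyme, had means of 54.0, 12.004 and 70.5 in these 3 groups, and the amacrine transcription factor Tfap2b 188.2, 21.5 and 168.3. These 2 genes do not stand for the list, whose median sums in the 3 groups were 1994, 1243 and 1691. The 9-month water values pool the blocks, and the median sum of the block 3 libraries among them was 1755. Over block 3 the mean log2 level of the list had an r of 0.79 with Pcdh17, 0.75 with Pcdh7 and Pcdh19, 0.74 with Pcdh10, 0.72 with Pcdh8 and 0.69 with Pcdh9. Over all 12 non-clustered genes its median r in block 3 was 0.68 (-0.12 to 0.79). For the ganglion cell list that median was 0.46 (-0.19 to 0.62), and for the cone list 0.05. Across all 61 libraries the medians were 0.65 for the amacrine and horizontal list, 0.54 for ganglion cells and 0.48 for cones. Of 10 ganglion cell markers tested 3 were lower with age, and of 11 tested 3 were higher with nicotinamide, with none called within block 3. The part of these marker genes in the protocadherin differences was not tested.

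Pcdh15 and Pcdh18 followed other markers. Pcdh15 had an r of 0.54 with the cone list, 0.43 with the rod list, -0.68 with the bipolar list and -0.07 with the amacrine list. Cone markers were higher with nicotinamide in 7 of 8 genes in all libraries (median 1.10) and in 0 of 8 within block 3 (median 0.41). Pcdh18 had an r of 0.70 with endothelial and pericyte markers and 0.57 with those of Müller glia, and was negatively correlated with Pcdh9 (-0.48). Pcdh7 had an r of -0.81 with the endothelial list. Beside the gamma genes, Müller glia and astrocyte markers were higher with age in 5 of 10 genes and lower with nicotinamide in 4 of 10 in all libraries. Within block 3 their age median was -1.33, opposite in sign to the gamma median of 0.36. Microglial markers were higher with age in 7 of 8 genes in all libraries, and within block 3 only 1 of them could be tested and did not pass. The part of these lists in the gamma differences was not tested.

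**Figure D5:**
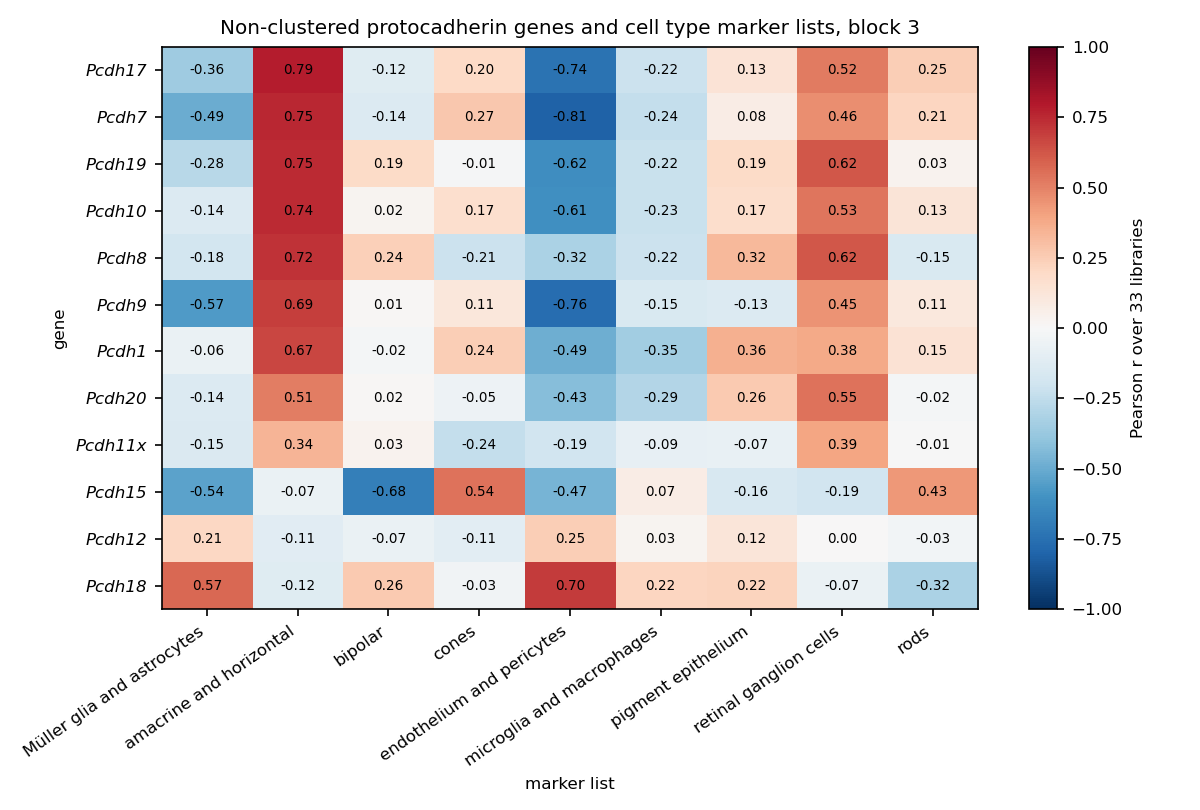
Pearson's r over the 33 libraries of block 3 between each non-clustered protocadherin (rows) and the mean log2 level of each marker list (columns). Pcdh7, Pcdh10, Pcdh17, Pcdh19, Pcdh8 and Pcdh9 are positive with the amacrine and horizontal list (0.69 to 0.79), Pcdh15 with the cone list (0.54) and Pcdh18 with the endothelial and pericyte list (0.70).

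Genes that act with protocadherins were counted in the same fits, where 9.25% of all genes were higher and 13.2% lower with age, and 9.78% higher and 5.34% lower with nicotinamide. Of 16 regulators of promoter choice and silencing, 5 were lower with age in DBA/2J, among them the cohesin subunits Smc1a, Smc3 and Stag1 and the DNA methyltransferase Dnmt3a, and the corepressor Trim28 was higher (0.40). With nicotinamide Smc1a (0.84), Smc3 (0.77) and Stag1 (0.51) were higher and Trim28 lower (-0.52). Of 23 cytoplasmic partners and processing enzymes, 4 were higher and 2 lower with age, and 2 higher and 3 lower with nicotinamide. Of 31 other cadherins, 11 were lower and 2 higher with age, led by Cdh8 (-1.87), Fat3 (-1.63), Cdh18 (-1.58) and Cdh7 (-1.28), and 8 were higher and 2 lower with nicotinamide. Of 23 other recognition molecules of retinal neurons, 10 were lower and 1 was higher with age, and with nicotinamide 8 were higher and 3 lower. Of 6 tested Usher complex partners of Pcdh15, the other tip-link cadherin Cdh23 was higher with age (1.43) and lower with nicotinamide (-1.48), and Ush1c was lower with nicotinamide (-1.12). Within block 3 no gene of any of these lists passed in the comparisons of age in DBA/2J or of nicotinamide.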

How the data were processed

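The deposited table holds a signal: the authors divided each gene's read count by a size of its library. How that size was computed is not given in the sources used here. Reads were aligned to mm10 with TopHat2 2.0.7 and Bowtie2 2.0.6 and counted with HTSeq, per the submitters' processing notes. Of 15171 rows, 22 whose names had become dates were left out. Whole reads could be recovered, since 100.0% of positive values in each library were multiples of a single step (tolerance 0.05). No gene was detected in fewer than 13 libraries. Columns name a group and a replicate number but not which sample they are.

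The main test was limma 3.58.1 (trend, robust, R 4.3.3) on log2(value + 1), leaving out genes that reached 1 in fewer libraries than the smaller group has, and adjusted over all genes at 0.05. edgeR 4.0.16 and DESeq2 1.42.0 on the recovered reads were alternatives. On these reads edgeR called 17 members for age in DBA/2J, and its calls for the other comparisons are given with them. Scripts were tested on simulated data. Replicate numbers do not pair libraries across groups. The members and gene lists were chosen with earlier results of these data known. Genes described in full were the 3 clustered and 6 non-clustered members with the highest level and at most 12 members ranked first by adjusted p. Other genes are named by their place in a list or range. Positions are from GENCODE M21 (68 of 69 members matched, Pcdha10 not), and promoters from RefSeq.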

Additional observations from a re-analysis of the deposited data

Results flagged for a closer look

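Within groups of 4 to 10 libraries, the gap of the highest or lowest library to its nearest neighbour was set against the group's range for the 17 genes described in full. Of 68 groups tested, 8 had a library that stood apart, and chance gives about 1 in 20. Pcdh17 was 33.3 in D2-Gpnmb+ 9 months replicate 8, where the next library had 16.005, and this is also the library of low Xist. Pcdh8 was 5.69 in D2-Gpnmb+ 9 months replicate 13 (next 2.81). In the nicotinamide group, Pcdh9 was 97.6 in replicate 8 (next 135.8) and Pcdhgb2 was 22.4 in replicate 2 (next 15.5). In 4-month DBA/2J, replicate 8 was high for Pcdhgb2 (30.4, next 20.9) and Pcdhgb8 (34.7, next 22.9). In the same group Pcdhb16 was 190.2 in replicate 10 (next 145.9) and Pcdhgb6 was 5.65 in replicate 7 (next 9.32).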

How the results depend on the processing

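With age in DBA/2J, 17 members passed in all libraries, 16 to 20 without any 1 of the 4-month libraries, 1 in block 3 only, and 0 with block as a covariate. Over all genes these fits called 3044, 2337 to 2906, 36 and 8. Block 3 without DBA/2J 9 months replicate 26, 27 or 28 gave 0, 6 and 1 members, and 6, 255 and 28 of all genes. In block 3 without replicate 28, Pcdh7 (0.103) and Pcdh9 (0.052) changed sign, and the cause was not tested. With nicotinamide, 23 passed in all libraries and 13 to 21 without any 1 of the nicotinamide libraries. Without replicate 3, 4, 5 or 7 the count was 13 to 15. With libraries scaled to the same total 13 passed (7 higher, 6 lower), and 0 passed in block 3 only and 0 with the covariate. Over all genes the fit of all libraries called 1362 higher and 743 lower of 13925, and the same total 1271 and 347 of 14020. The fits without 1 nicotinamide library called 1294 to 1861 genes, block 3 only called 1 and the covariate 0. Single 9-month water libraries were left out only within block 3, which also holds 3 in place of 25 of them. Block 3 without replicate 26, 27 or 28 gave 0, 13 and 0 members, and 0, 378 and 0 of all genes. For age in DBA/2J the members split 8 higher and 9 lower by limma, 9 and 8 by edgeR, 12 and 8 by DESeq2, and 5 and 9 with the same total. All genes split 1257 higher and 1787 lower, 1712 and 1448, 2192 and 1517, and 850 and 1508 in the same fits.

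Fitting all 5 groups together gave 4 members for strain at 9 months, 5 for age in D2-Gpnmb+, 8 for nicotinamide against D2-Gpnmb+ and 1 for the interaction, against 0 in each main result. Over all genes these 4 fits called 680 of 13755, 1653 of 12910, 1678 of 13054 and 146 of 14150. DESeq2 gave 5 and edgeR 4 for age in D2-Gpnmb+, and 7 and 4 for nicotinamide against D2-Gpnmb+. Over all genes they called 2114 and 1495 of 12910, and 2083 and 1067 of 13054. Leaving out 1 of the 9-month D2-Gpnmb+ libraries gave 0 to 5 for age in D2-Gpnmb+ (4 or 5 without 9-month replicates 9, 13, 14 or 15) and 0 to 1 for the interaction (1 without D2-Gpnmb+ replicate 9). The fits with 4 or 5 members called 1010 to 2069 of all genes, and the interaction fit with 1 member called 239. The same total gave 2 for the interaction (214 of all 14199 genes), and it moved the median of all genes to 0.24 for strain at 4 months, 0.31 for age in D2-Gpnmb+, -0.13 for strain at 9 months and -0.36 for the interaction. Other pseudocounts (0.5 and 2), no filter, and leaving out block 1, which was chosen after seeing the data, left each of the 22 single-gene results described with their call. All 22 lost it in block 3 only. No paired analysis was possible because replicate numbers do not pair libraries across groups. Without the filter on low values Pcdh20 was called lower with age in DBA/2J and higher with nicotinamide.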
